A study of Mus musculus with 4 samples.

Results

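Angptl4, Angptl2, the nuclear receptors Ppard and Ppara, and the lipid genes Cpt1a, Pdk4 and Lpl were followed in sorted mouse hair follicle stem cells. These 7 genes were chosen by symbol from the 24084 gene rows of the count table, and all 7 were found. They were chosen with their levels in Foxp3-DTR and WT known, so their differences between these groups, and the number of them called, are given as a description that supports nothing further. Of the 7, 6 passed the filter on low counts, and Pdk4 did not.

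The study sequenced mRNA from hair follicle stem cells of back skin, taken from C57BL/6 mice aged 7 to 10 weeks on day 4 after depilation, which sets off hair regrowth. The 2 Foxp3-DTR libraries, C and D, came from mice in which Foxp3-expressing regulatory T cells carry the diphtheria toxin receptor, and the labels give these cells as depleted. The 2 WT libraries, A and C, came from mice without the receptor, which kept their regulatory T cells. Mice of both groups received diphtheria toxin at 15 ng/g into the abdomen. The comparison asks how the stem cells' transcripts differ when regulatory T cells are missing. No source used here says that the libraries came from separate animals, or how many animals were pooled in one, so the p-values reflect spread among the libraries alone, which may be technical.

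Gene counts per library ran from 13911765 to 15923154. Foxp3 had 0 counts in every library, which in sorted epithelial cells does not check the depletion. The groups also differed in sex-linked transcripts. The Y-linked genes Ddx3y, Eif2s3y, Kdm5d and Uty together had 4814 and 3663 counts in Foxp3-DTR C and D, against 0 in both WT libraries. Xist had 28 and 0 counts in Foxp3-DTR C and D, against 12226 and 40355 counts in WT A and C. The titles also carry the code DEP3 for Foxp3-DTR and DEP2 for WT. Genotype, sex of the animals and this code cannot be told apart in any value below. Of 12920 genes tested with edgeR's quasi-likelihood test and Benjamini-Hochberg adjustment, 161 (1.25%) passed an adjusted p of 0.05, 106 (0.82%) higher and 55 (0.426%) lower in Foxp3-DTR.

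Peroxisome proliferator-activated receptors (PPARs) are nuclear receptors that bind fatty acids and, paired with a retinoid X receptor, switch on genes that take up, store and burn fat. Cpt1a, Pdk4, Lpl and Angptl4 are among their best-known targets, and Angptl4 also responds to glucocorticoids and to low oxygen. In the epidermis, PPAR-delta is the most widely expressed of these receptors and is studied in keratinocyte differentiation and wound repair. Angptl4 is a secreted protein that inactivates lipoprotein lipase, and Angptl2 is a relative known from expression signatures of the hair follicle bulge, where these stem cells sit.

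The PPAR response element is a pair of AGGTCA motifs with 1 base between them, written AGGTCANAGGTCA. RefSeq promoter windows of GRCm38.p6, from 250 bases before to 50 after each annotated start, were found for 5 of the 7 genes: Angptl2, Ppara, Ppard, Pdk4 and Cpt1a. On either strand, the full element was in 0 of these 5 windows and in 0.0396% of all 32851 windows of the same length. Every one of the 5 had at least 4 mismatches to it, and only 24.6% of all windows had 3 or fewer. The single motif AGGTCA, which the full element also contains, was found in Cpt1a alone of the 5, and in 16.3% of all windows. The core of the hypoxia response element, ACGTG, was found in Ppard alone of the 5, and in 19.6% of all windows. The glucocorticoid response element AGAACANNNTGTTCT was found in 0 of the 5 and in 0.00913% of all windows. The stretches below are those of the enzyme genes Cpt1a and Pdk4, both known PPAR targets, of which Cpt1a was well expressed and Pdk4 barely detected in these cells. For Cpt1a (chr19:3323195-3323224, plus strand), 30 bases around its motif are shown, with the motif in capitals, printed as TGACCT because it lies on the strand opposite to the gene. For Pdk4 (chr6:5496310-5496528, minus strand), the 219 bases upstream of its annotated exons are shown, with nothing in capitals since the motif was not found.
Cpt1a: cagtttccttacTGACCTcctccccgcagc
Pdk4: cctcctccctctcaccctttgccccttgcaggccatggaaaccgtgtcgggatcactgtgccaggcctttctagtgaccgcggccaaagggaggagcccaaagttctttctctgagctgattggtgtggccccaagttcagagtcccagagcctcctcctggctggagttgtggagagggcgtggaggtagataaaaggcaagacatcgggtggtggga
A match is only a run of letters, and a window without one says nothing about binding elsewhere in the gene.

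Among the 7 genes, Angptl4 was the one whose level differed several-fold between the groups in every library. Its counts were 911 and 686 in Foxp3-DTR C and D, against 87 and 47 in WT A and C. As CPM, which scales each library's counts by its size and TMM factor, this was 60.4 and 48.6 CPM in Foxp3-DTR, against 6.12 and 2.89 CPM in WT. Both Foxp3-DTR libraries were therefore above both WT libraries, and the lower Foxp3-DTR level was 7.94 times the higher WT level. The log2 fold change was 3.60 ± 0.41 (SE), from means of 54.5 ± 8.34 CPM in Foxp3-DTR and 4.51 ± 2.29 CPM in WT (SD, n = 2 each). That was the 82nd highest of the 12920 genes tested, and the 48th highest of the 11196 whose log2 CPM averaged 2 or more.

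The replicates of Angptl4 differed less in Foxp3-DTR than in WT. Foxp3-DTR C had 1.24 times the level of Foxp3-DTR D, with a 95% counting interval of 1.12 to 1.37 (Poisson). WT A had 2.12 times the level of WT C, with an interval of 1.47 to 3.09. Such intervals cover counting error only. With each library left out in turn, the log2 fold change stayed between 3.16 and 4.25. Angptl4 (ENSMUSG00000002289) lies on the minus strand of chromosome 17, from 33773750 to 33781830 in GRCm38, the assembly that mm10 names. It has 7 exon blocks and no overlapping gene in GENCODE M21.

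**Figure D1:**
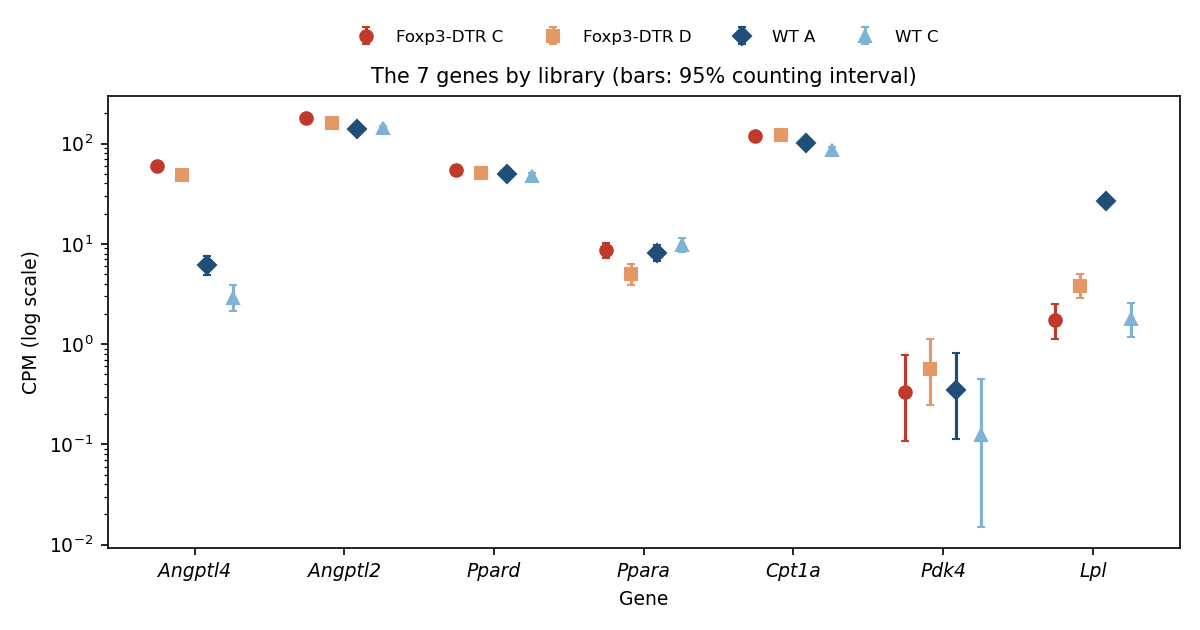
CPM on a log axis for each of the 7 genes in Foxp3-DTR C and D and in WT A and C, with bars for the 95% Poisson counting interval. Angptl4 lies at 60.4 and 48.6 CPM in Foxp3-DTR and at 6.12 and 2.89 CPM in WT, while Lpl is high in WT A alone, at 26.9 CPM.

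Angptl2, a secreted relative of Angptl4 that does not inhibit lipoprotein lipase, was far less different between the groups. It stood at 180 and 161 CPM in Foxp3-DTR C and D, against 138 and 143 CPM in WT A and C. The groups did not overlap, but the lower Foxp3-DTR level was only 1.13 times the higher WT level, and the Foxp3-DTR replicates themselves differed 1.12-fold. Its log2 fold change was 0.28 ± 0.17 (SE), and 50.6% of all tested genes had a larger one in absolute value. Angptl2 (chromosome 2, 33216069 to 33247717, plus strand) lies within Ralgps1 on the opposite strand and shares 0 exon bases with it.

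The balance of both genes is clearest per length. In TPM, counts divided by the union length of the annotated exons and scaled to 1 common total per library, Angptl4 reached 65.5 and 50.2 TPM in Foxp3-DTR C and D, against 6.37 and 3.34 TPM in WT A and C. Angptl4 made up 37.3% and 34.8% of the summed Angptl4 and Angptl2 TPM in Foxp3-DTR C and D, against 7.28% and 3.47% in WT A and C. In rank, Angptl4 exceeded 78.2% and 73.7% of the 14943 detected genes in Foxp3-DTR C and D, against 33.2% and 26.5% in WT A and C.

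Ppard, the gene of PPAR-delta, was nearly level across the 4 libraries. It stood at 54.4 and 51.4 CPM in Foxp3-DTR C and D, against 49.7 and 47.9 CPM in WT A and C. The groups did not overlap, yet the lower Foxp3-DTR level was only 1.03 times the higher WT level. Its log2 fold change was 0.12 ± 0.19 (SE), and 77.3% of tested genes had a larger one in absolute value.

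Ppara, the gene of PPAR-alpha and best known for fat burning in liver, was low. It had 8.62 and 4.96 CPM in Foxp3-DTR C and D, against 8.09 and 9.77 CPM in WT A and C. The groups overlapped, and Foxp3-DTR D was the lowest library. Foxp3-DTR C had 1.74 times the level of D (counting interval 1.29 to 2.36), so the replicates differed beyond counting error. The log2 fold change was -0.40 ± 0.45 (SE), and without Foxp3-DTR D it was -0.04. Of the summed TPM of Ppard, Ppara and Pparg, Ppard made up 72.6% and 83.9% in Foxp3-DTR C and D, against 63.0% and 68.9% in WT A and C. Ppara made up 22.5% and 15.8% in Foxp3-DTR C and D, against 20.1% and 27.5% in WT A and C. Ppard was thus the most abundant of the receptor transcripts in every library.

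Cpt1a moves long-chain fatty acids into mitochondria and sets the rate of their oxidation. It stood at 119 and 122 CPM in Foxp3-DTR C and D, against 102 and 86.6 CPM in WT A and C. The groups did not overlap, with the lower Foxp3-DTR level 1.17 times the higher WT level, about the 1.18-fold difference between the WT replicates. Its log2 fold change was 0.36 ± 0.18 (SE), and 41.9% of tested genes had a larger one in absolute value. Cpt1a was the main transcript of its family: it made up 86.1% and 90.3% of the summed TPM of Cpt1a, Cpt1b and Cpt1c in Foxp3-DTR C and D, against 82.2% and 70.8% in WT A and C.

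Pdk4, a kinase that switches off pyruvate dehydrogenase and spares glucose when fat is burned, was barely detected. It had 5 and 8 counts in Foxp3-DTR C and D, against 5 and 2 counts in WT A and C, and the groups overlapped. From 13 counts in Foxp3-DTR and 7 in WT, the ratio was 1.94 with a counting interval of 0.719 to 5.74, so a difference was not detectable at this depth. Pdk1, Pdk2 and Pdk3 carried the family: Pdk4 made up at most 0.278% of its summed TPM in any library.

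Lpl, the lipase that releases fatty acids from circulating lipoproteins and that Angptl4 inhibits, was set by 1 library. It had 1.72 and 3.82 CPM in Foxp3-DTR C and D, against 26.9 and 1.78 CPM in WT A and C. WT A was 15.1 times WT C (counting interval 10.4 to 22.9), and the groups overlapped, since WT C lay between both Foxp3-DTR libraries. The log2 fold change was -2.37 ± 1.30 (SE) with all libraries and 0.65 without WT A, so its sign turned with that library.

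Of the 6 genes that passed the filter, 1 was called higher in edgeR's test, Angptl4, and 0 lower, as in DESeq2, in limma-voom and at an unadjusted edgeR p under 0.05. The share of all tested genes called was 1.25% in either direction, and since the genes were chosen on this contrast, nothing is read from the count. The groups did not overlap for Angptl4, Angptl2, Ppard and Cpt1a, 4 of the 6, beside 45.7% of all tested genes. The median log2 fold change of the 6 was 0.20, beside -0.01 over all tested genes.

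**Figure D2:**
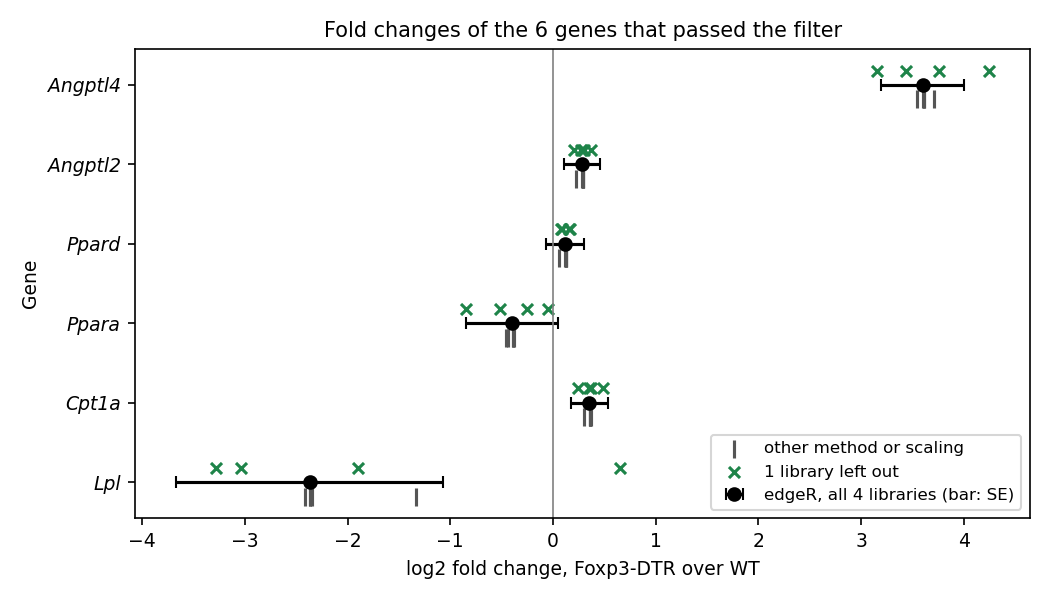
Log2 fold change of Foxp3-DTR over WT for the 6 genes that passed the filter. Black points are edgeR's value with its standard error, green crosses leave out 1 library each, and grey ticks are other methods or scalings. Angptl4 stays between 3.16 and 4.25, and Lpl runs from -3.28 to 0.65.

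The order of levels, in mean TPM (SD, n = 2 each), differed between the groups mainly in the place of Angptl4. In Foxp3-DTR, Angptl2 came first at 102 ± 11.4 TPM, followed by Cpt1a at 59.2 ± 1.09, Angptl4 at 57.9 ± 10.8 and Ppard at 26.4 ± 1.97 TPM. Ppara at 6.68 ± 2.76, Lpl at 0.984 ± 0.497 and Pdk4 at 0.477 ± 0.161 TPM closed that order. Cpt1a and Angptl4 did not differ beyond their spread there. In WT, Angptl2 led at 87.1 ± 8.35 TPM, with Cpt1a at 47.8 ± 1.92 and Ppard at 25.3 ± 1.24 TPM next. Ppara at 9.11 ± 1.89, Lpl at 5.09 ± 6.21 and Angptl4 at 4.86 ± 2.14 TPM followed, with Pdk4 last at 0.257 ± 0.160 TPM. Lpl could not be separated from its neighbours in WT, since its libraries stood at 9.48 and 0.698 TPM. With the longest transcript as the length, Angptl4 in Foxp3-DTR was at 47.8 ± 8.84 TPM, within its spread of Ppard at 41.1 ± 2.98 TPM and below Cpt1a at 80.8 ± 1.31 TPM.

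The other genes of the pathway were described by 8 lists with 166 genes in all, of which 129 passed the filter. Of these 129, 6 rose and 1 fell in edgeR's test over all genes, beside 0.82% and 0.426% of all tested genes. The median log2 fold change of the 129 was 0.11.

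Fatty acid oxidation genes, the main targets of PPAR-alpha and PPAR-delta, had 0 of 32 tested members past the threshold in edgeR's test. Of all tested genes, 1.25% passed it. In this list 15 had positive and 17 negative fold changes, with a median of -0.11. At an unadjusted edgeR p under 0.05 there were 4, of which 2 were higher and 2 lower, beside 14.6% of all tested genes (873 higher and 1019 lower). DESeq2 called 1 higher and 1 lower, beside 489 and 514 of 13559 genes, and limma-voom called 0. The member with the smallest p was Ucp2, a mitochondrial carrier, at 199 and 257 CPM in Foxp3-DTR C and D, against 876 and 523 CPM in WT A and C. Its log2 fold change was -1.62 ± 0.30 (edgeR adjusted p = 0.0596), and it passed in DESeq2, with no filter and without WT C.

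The mitochondrial dehydrogenases Acadm and Acadvl, picked once their values were known, differed by 0.20 and 0.11 on the log2 scale and did not pass. Among the 9 untested members were Cyp4a10, Cyp4a14, Fgf21 and Vnn1, which are known as PPAR-alpha targets in liver.

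In the list of fatty acid uptake, binding and lipid droplet genes, 1 of 25 tested members rose and 0 fell in edgeR's test. Of all tested genes, 0.82% rose and 0.426% fell. DESeq2 and limma-voom gave the same counts, beside 489 and 514 of 13559 genes in DESeq2 and 70 and 23 of 12920 in limma-voom. At an unadjusted edgeR p under 0.05 there were 2 higher and 2 lower, beside 14.6% of all tested genes (873 higher and 1019 lower). The gene that rose was Slc27a3, a member of the fatty acid transport and acyl-CoA synthetase family. Slc27a3 had 328 and 384 CPM in Foxp3-DTR C and D, against 91.3 and 78.2 CPM in WT A and C. Both Foxp3-DTR libraries were far above both WT libraries, by 2.07 ± 0.20 on the log2 scale (edgeR adjusted p = 0.0108). The median of the list was -0.19, with 9 positive and 16 negative fold changes. Plin2, the lipid droplet coat protein and a widely used PPAR target, named after its values were seen, had 67.1 and 69.8 CPM in Foxp3-DTR C and D, against 170 and 88.2 CPM in WT A and C. It did not pass (log2 fold change -0.92 ± 0.32, edgeR adjusted p = 0.245).

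**Figure D3:**
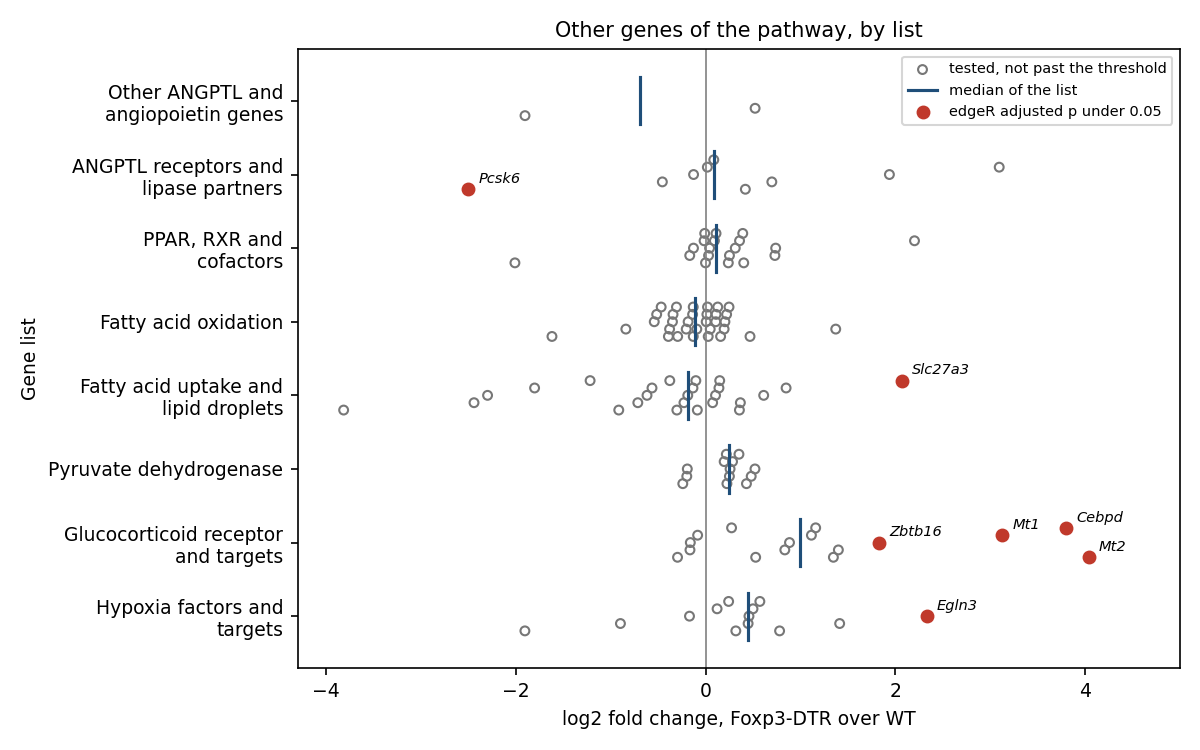
Log2 fold change of Foxp3-DTR over WT (x axis) for every tested gene of the 8 lists (y axis). Filled red points passed an edgeR adjusted p of 0.05, open points did not, and blue lines are list medians. Fatty acid oxidation genes have a median of -0.11 with 0 of 32 filled, and the glucocorticoid list has 4 of 16 filled, all to the right of 0. Of all tested genes, 1.25% passed.

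The receptor partners and cofactors had 0 of 19 tested members past the threshold, beside 1.25% of all tested genes, with a median of 0.11. At an unadjusted edgeR p under 0.05 there were 2, both higher, beside 14.6% of all tested genes (873 higher and 1019 lower). DESeq2 called 1 higher, beside 489 of 13559 genes, and limma-voom 0. The smallest p was that of Ppargc1b, a coactivator of mitochondrial and lipid genes, at 26.1 and 11.9 CPM in Foxp3-DTR C and D, against 3.38 and 4.86 CPM in WT A and C. Its log2 fold change was 2.20 ± 0.49 (edgeR adjusted p = 0.0865), and it passed in DESeq2, with no filter and without Foxp3-DTR D. The retinoid X receptor Rxra, named after its values were seen, differed by -0.17 on the log2 scale (edgeR adjusted p = 0.781).

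The genes around pyruvate dehydrogenase, the enzyme that Pdk4 blocks, had 0 of 13 tested members past the threshold, 0 at an unadjusted edgeR p under 0.05, and 0 in DESeq2 and limma-voom. Of all tested genes, 1.25% passed the threshold. The median of the 13 was 0.25, with 10 positive and 3 negative fold changes. The smallest p was that of the phosphatase Pdp1, which reactivates the enzyme. It differed by 0.48 ± 0.23 on the log2 scale (edgeR adjusted p = 0.421).

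Of the other angiopoietin-like and angiopoietin genes, 2 of 8 passed the filter and 0 were called, by edgeR, DESeq2 or limma-voom. In edgeR's test 1.25% of all tested genes were called. Angptl6 had 1.86 and 0.708 CPM in Foxp3-DTR C and D, against 3.94 and 5.72 CPM in WT A and C. Its log2 fold change was -1.90 ± 0.73 (edgeR adjusted p = 0.295), with an unadjusted p under 0.05 as the 1 such gene of the list. The other, Angptl7, named after its values were seen, stood at 353 and 618 CPM in Foxp3-DTR C and D, against 192 and 484 CPM in WT A and C, and the groups overlapped. Per length, Angptl7 was the most abundant of the angiopoietin-like genes in each library.

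Among receptors of angiopoietin-like proteins and partners of the lipases, 1 of 9 tested members fell and 0 rose in edgeR's test. Of all tested genes, 0.426% fell and 0.82% rose. DESeq2 called 2 higher and 1 lower, beside 489 and 514 of 13559 genes, and limma-voom called 0 higher and 1 lower. At an unadjusted edgeR p under 0.05 there were 3 higher and 2 lower, beside 14.6% of all tested genes (873 higher and 1019 lower). The gene that fell was Pcsk6, a proprotein convertase of the furin family, members of which cleave Angptl4. Pcsk6 had 22.1 and 25.7 CPM in Foxp3-DTR C and D, against 147 and 125 CPM in WT A and C (log2 fold change -2.50 ± 0.20, edgeR adjusted p = 0.00509). The list's other convertases, Furin and Pcsk5, named after their values were seen, were higher in both Foxp3-DTR libraries than in both WT libraries. Furin had 225 and 162 CPM in Foxp3-DTR C and D, against 138 and 151 CPM in WT A and C. Pcsk5 had 16.6 and 11.1 CPM in Foxp3-DTR C and D, against 4.64 and 2.58 CPM in WT A and C. Neither passed in edgeR's test, and the 2 genes that DESeq2 called higher were Pcsk5 and Lipg. Gpihbp1, which anchors lipoprotein lipase in capillaries, did not pass the filter on low counts.

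Since glucocorticoids and low oxygen are also known to raise Angptl4, their targets were counted too. The part of glucocorticoids or of low oxygen in the level of Angptl4 was not tested. Of 16 tested genes of the glucocorticoid list 4 rose and 0 fell in edgeR's test, beside 0.82% and 0.426% of all tested genes. DESeq2 called 9 higher and 0 lower, beside 489 and 514 of 13559 genes. In limma-voom the counts were 3 and 0. At an unadjusted edgeR p under 0.05 there were 10 higher and 0 lower, beside 14.6% of all tested genes (873 higher and 1019 lower). The list's median was 1.0 on the log2 scale, and 12 fold changes were positive. Mt2 and Mt1, metal-binding stress proteins that metals and cytokines also raise, had log2 fold changes of 4.04 ± 0.21 and 3.13 ± 0.20 (edgeR adjusted p = 0.00307 and 0.0033). Cebpd, a transcription factor that inflammatory cytokines also raise, had 175 and 144 CPM in Foxp3-DTR C and D, against 9.64 and 13.2 CPM in WT A and C (log2 fold change 3.80 ± 0.25, edgeR adjusted p = 0.0033). The fourth was the transcription factor Zbtb16, named after its values were seen, at 49.1 and 41.8 CPM in Foxp3-DTR C and D, against 10.6 and 15.0 CPM in WT A and C (edgeR adjusted p = 0.0426). Zbtb16 did not pass in limma-voom or without Foxp3-DTR C. The receptor itself, Nr3c1, also named after its values were seen, had a log2 fold change of -0.08 ± 0.26. Fkbp5, Tsc22d3, Per1, Dusp1 and Ddit4 of the same list, named after their values were seen, did not pass in edgeR's test. Their log2 fold changes were 0.84, 1.40, 0.53, 0.27 and -0.30, in that order. Sgk1, Klf9, Errfi1 and Cdkn1c did not pass either, at 1.12, 0.88, 1.16 and 1.35 on the log2 scale, nor did Foxo1 and Foxo3, both at -0.16. These too were named after their values were seen. Of the genes that did not pass in edgeR's test, DESeq2 called Fkbp5, Tsc22d3, Sgk1, Klf9 and Errfi1 higher.

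The hypoxia list had 1 of 13 tested members higher and 0 lower in edgeR's test, as in limma-voom. In edgeR's test 0.82% of all tested genes were higher and 0.426% lower. DESeq2 called 3 higher and 1 lower, beside 489 and 514 of 13559 genes. At an unadjusted edgeR p under 0.05 there were 3 higher and 1 lower, beside 14.6% of all tested genes (873 higher and 1019 lower). The median of this list was 0.45, with 10 positive and 3 negative fold changes. The gene that rose was Egln3, an oxygen-sensing hydroxylase, at 240 and 235 CPM in Foxp3-DTR C and D, against 50.7 and 43.7 CPM in WT A and C (log2 fold change 2.33 ± 0.19, edgeR adjusted p = 0.00509). Hif1a, the oxygen-regulated transcription factor, named after its values were seen, had 221 and 215 CPM in Foxp3-DTR C and D, against 402 and 410 CPM in WT A and C. It did not pass in edgeR's filtered test (log2 fold change -0.90 ± 0.17, edgeR adjusted p = 0.0676), but was called lower by DESeq2 and by edgeR with no filter.

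The genes nearest to Angptl4 in pattern over the 4 libraries were sought among 10732 genes, those of the 11196 named above without a predicted or clone name. Likeness was the Euclidean distance between log2 CPM values centred on each gene's mean. The 5 nearest were Skint2 (distance 0.346), Ecscr (0.384), Il4ra (0.623), Ace (0.635) and Clu (0.652). Il4ra, the receptor chain for interleukin-4, had 163 and 94.8 CPM in Foxp3-DTR C and D, against 19.7 and 10.2 CPM in WT A and C. Ace, angiotensin-converting enzyme, had 91.1 and 46.0 CPM in Foxp3-DTR C and D, against 5.70 and 4.12 CPM in WT A and C. With 4 libraries such likeness is common: 463 genes had a Pearson correlation with Angptl4 above 0.95. For Angptl2 the nearest were Slc7a6os, Rreb1, Aldh16a1, Ube2g1 and Usp32, at distances from 0.0188 to 0.0349.

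**Figure D4:**
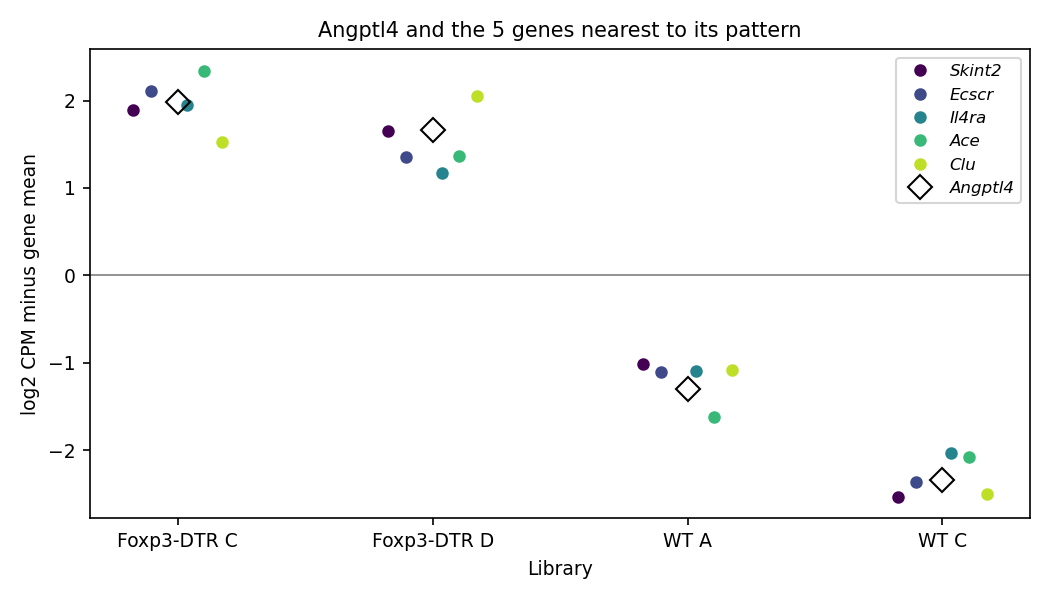
Log2 CPM minus each gene's mean (y axis) in the 4 libraries (x axis) for Angptl4 (open diamonds) and the 5 genes nearest to it, spread sideways for clarity. All 6 genes are above 0 in both Foxp3-DTR libraries and below 0 in both WT libraries.

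Markers of the sorted cells and of other cell types were read in the same libraries. The 11 hair follicle stem cell markers summed to 27390 and 31730 CPM in Foxp3-DTR C and D, against 33160 and 34050 CPM in WT A and C, led by Krt5, and 0 of the 11 were at 0. Of the 11, 3 were higher and 4 lower in both Foxp3-DTR libraries than in both WT libraries, and 0 passed edgeR's test. Of all tested genes, 45.7% did not overlap between the groups, in either direction, and 1.25% passed. Of 12 adipocyte markers, all in the table, Adipoq, Retn, Pck1, Thrsp and Fabp4 had 0 counts in all libraries, where 3 counts would be 0.184 to 0.212 CPM. The list summed to 23.0 and 20.8 CPM in Foxp3-DTR C and D, against 40.5 and 17.6 CPM in WT A and C, led by Lipe. Adipocytes are known as a main source of Angptl4 and Lpl in skin. The 10 endothelial markers summed to 5.43 and 6.37 CPM in Foxp3-DTR C and D, against 12.4 and 8.85 CPM in WT A and C. Their leader was Egfl7, and Cdh5, Kdr, Tie1 and Emcn were at 0.

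Sebaceous gland markers moved with Lpl. The 10 markers summed to 154 and 314 CPM in Foxp3-DTR C and D, against 1722 and 206 CPM in WT A and C, with 0 of the 10 at 0. In 7 of their 9 tested members WT A was at least 2 times every other library, against 1.78% of all tested genes. The same held for Lpl and, among the uptake and droplet genes, for Cd36, Slc27a4, Cidea and Mgll, 4 of 25, but for 0 of the 32 oxidation genes. Scd1, a desaturase abundant in sebocytes, had 119 and 237 CPM in Foxp3-DTR C and D, against 1335 and 146 CPM in WT A and C. Mgll, which splits monoglycerides, had 25.9 and 51.4 CPM in Foxp3-DTR C and D, against 245 and 25.1 CPM in WT A and C. The fatty acid receptor Cd36 had 0.133 and 0.991 CPM in Foxp3-DTR C and D, against 15.4 and 0.553 CPM in WT A and C. This count by library was made after the values were seen, and the part of sebaceous cells in the level of Lpl was not tested. In bulk samples, fewer cells of a type and less RNA per cell cannot be told apart. Angptl4 followed another order, with both Foxp3-DTR libraries above WT A.

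**Figure D5:**
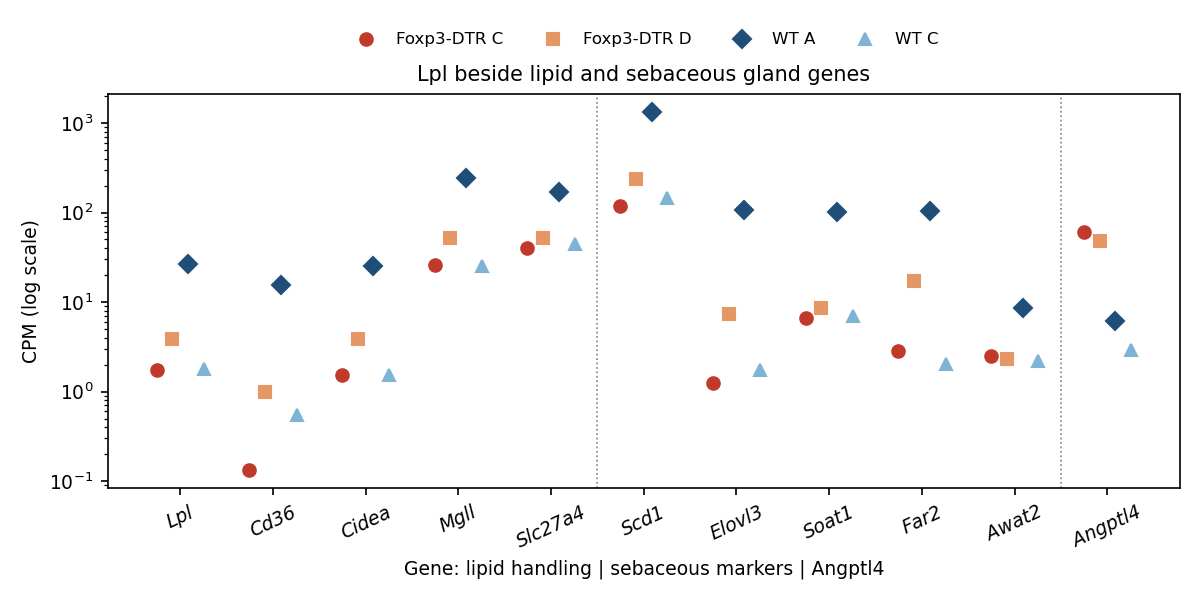
CPM on a log axis in Foxp3-DTR C and D and in WT A and C for Lpl, 4 lipid-handling genes, 5 sebaceous gland markers and Angptl4. Lpl and Scd1 are highest in WT A, at 26.9 and 1335 CPM, and Angptl4 is highest in Foxp3-DTR C, at 60.4 CPM.

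The 9 differentiated epidermis markers in the table summed to 1577 and 7611 CPM in Foxp3-DTR C and D, against 9804 and 2145 CPM in WT A and C, led by Krt10, with 0 at 0. Of these 9, 1 fell and 0 rose in edgeR's test, beside 0.426% and 0.82% of all tested genes. It was Calml3, named after its values were seen (log2 fold change -1.57 ± 0.25, edgeR adjusted p = 0.0486), which did not pass in limma-voom. The 11 fibroblast and dermal papilla markers summed to 109 and 191 CPM in Foxp3-DTR C and D, against 1032 and 755 CPM in WT A and C, led by Bgn, with Lum, Dpt, Corin and Sox2 at 0. Without Bgn these sums were 27.8 and 32.1 CPM in Foxp3-DTR C and D, against 40.2 and 54.1 CPM in WT A and C. In this list 2 markers, Pdgfra and Dcn, were higher in both Foxp3-DTR libraries than in both WT libraries. Another 3 markers, Bgn, Col1a1 and Col1a2, were lower in both. Of all tested genes, 45.7% likewise had no overlap between the groups, in either direction. Of the 4 tested markers, Bgn alone passed edgeR's test (log2 fold change -2.82 ± 0.38, edgeR adjusted p = 0.0412), beside 0.426% of all tested genes that fell. Fibroblasts also make Angptl2, and their part in its level was not tested. The 11 macrophage, Langerhans cell and granulocyte markers summed to between 2.52 and 9.01 CPM in the 4 libraries, with Cd68 the highest by its mean over them. In both Foxp3-DTR libraries 3 of these markers were higher and 2 lower than in both WT libraries, beside the same 45.7% of all tested genes. The 8 T cell markers in the table summed to at most 5.56 CPM, led by Cd3g, with Cd4, Foxp3 and Cd2 at 0. The 7 melanocyte markers summed to 120 and 140 CPM in Foxp3-DTR C and D, against 96.9 and 141 CPM in WT A and C, led by Mitf, with 0 at 0 in all libraries. Without Mitf they summed to 33.9 and 44.7 CPM in Foxp3-DTR C and D, against 33.0 and 18.8 CPM in WT A and C. In 5 of the 7, both Foxp3-DTR libraries were above both WT libraries, beside 45.7% of all tested genes without overlap in either direction. These 5 were Pmel, Tyr, Tyrp1, Mlana and Sox10. The highest of these was Pmel or Tyrp1 in each library, and Pmel had 6.03 and 8.36 CPM in Foxp3-DTR C and D, against 2.81 and 2.27 CPM in WT A and C. None of the 5 passed edgeR's test, where Mlana was not tested, and the part of melanocytes in the level of Angptl4 was not tested.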

How the data were processed

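The authors deposited raw counts of reads, 1 row per gene symbol and 1 column per library. The kit was a stranded mRNA kit, per the labels' protocols. The submitters' processing notes name HTSeq 0.6.1, TopHat2 2.0.12, CASAVA 1.8.2, SAMtools 0.1.19.0, Bowtie2 2.1.0.0 and build mm10. The sources used here give neither the annotation nor the counter's strand setting, so reads of overlapping or antisense genes cannot be told apart. The 5 special rows of the counter, 62.0% to 70.1% of a library's counts and mostly alignments that were not unique, were left out.

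In R 4.3.3, edgeR 4.0.16 (TMM, filterByExpr, robust glmQLFit, glmQLFTest, no covariate) compared Foxp3-DTR with WT. Benjamini-Hochberg adjustment covered all 12920 genes tested, with a threshold of 0.05. Standard errors come from the fold change and its F statistic. The fit was tested on simulated data. Alternatives used DESeq2 1.42.0, limma-voom 3.58.1, other scalings, no filter, and each library left out. Members and lists were chosen with earlier results of these data known. TPM used GENCODE M21 exon lengths, with 94.7% of symbols matched.

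Genes named were all 7 members, and from each pathway list up to 3 past the threshold with the smallest p, or else the smallest p. From each cell type list the most abundant marker and those at 0 were named, and for Angptl4 and Angptl2 the 5 nearest patterns without predicted names. Some genes of the lists are counted but not reported here by name.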

Additional observations from a re-analysis of the deposited data

How the results depend on the processing

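The number of members called higher was 1, Angptl4, under all 9 alternatives, which is no sign of stability since the members were chosen on this contrast. The number of members called lower was 0 except without WT C, where it was 1, Lpl. Counts of all genes moved more: 489 higher and 514 lower with DESeq2, 277 and 252 with no filter, and 70 and 23 with limma-voom. With 1 library left out, 66 to 203 were higher and 14 to 220 lower: 66 and 14 without Foxp3-DTR C, 203 and 220 without Foxp3-DTR D, and 190 and 160 without WT C. Of the other pathway genes, DESeq2 called 17 higher and 3 lower, and no filter 3 lower. With 1 library left out, 6 to 11 were higher and 1 to 4 lower, with 11 and 4 without WT C. The log2 fold change of Lpl was 0.65 without WT A, that library being its one high value, and Pdk4, which the filter removed, was at 0.92 with no filter and 0.93 with DESeq2. A fit without a library leaves 1 sample in a group, which is assumed to vary like the others. No paired analysis was possible because the groups share 1 replicate letter only. Depth limited Pdk4, with 2 to 8 counts in a library.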
